A study of Mus musculus with 4 samples.

Results

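The 10 genes described here encode receptors with which phagocytes bind dying cells and modified lipoproteins, together with Gas6, a ligand of such receptors. They were chosen by gene symbol (Gas6, Mertk, Axl, Stab1, Cd36, Scarb1, Msr1, Marco, Colec12 and Cd68) from the 24784 genes of an RPKM table, in which all 10 were found and all 10 had a mean of at least 1 RPKM, the minimum for testing. RPKM corrects read numbers for gene length and library size, so levels can be set side by side between genes. Polyadenylated RNA came from cells that were sorted by flow cytometry out of liver tumours and carry the label tumour-associated macrophages. The mice were males, 6 to 8 weeks old, and had all received Hepa 1-6, a mouse hepatoma line, by a route the labels write as i.pv. Control was the genotype label of 2 libraries, titled WT, and OXCT1mKO that of the other 2, titled KO, a name that refers to Oxct1, the mitochondrial enzyme that activates ketone bodies for use as fuel. The labels do not give the promoter or cell type behind the OXCT1mKO genotype, the strain or, beyond WT, which alleles the controls carry. Whether each sample was a separate animal or a pool is also not given, so p-values here reflect the spread among samples that may be technical repeats.

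Efferocytosis is the removal of dying cells by phagocytes, which recognise phosphatidylserine exposed on the dying cell. GAS6 and protein S bridge that lipid to the TAM receptor kinases TYRO3, AXL and MERTK, while stabilins bind it directly. Scavenger receptors take up modified lipoproteins, bacteria and debris, and in the liver both Kupffer cells, the resident macrophages, and sinusoidal endothelial cells carry many of them. Stab1, Cd36 and Scarb1 are therefore genes of liver endothelium as well as of macrophages.

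The sequence before a RefSeq transcription start is shown for 4 of the members that rose in OXCT1mKO, to set their promoters side by side. RefSeq promoters of build GRCm38.p6 were matched for 7 members, and the 250 bases before the start were searched on both strands for 8 motifs. The windows shown are chr2:128698665-128698914 (plus strand) for Mertk, chr7:25788734-25788983 (minus strand) for Axl, chr5:17835897-17836146 (minus strand) for Cd36 and chr11:69666171-69666420 (minus strand) for Cd68, each written 5′ to 3′ on the strand of the gene. The Cd36 window lies inside the GENCODE span of that gene (17781690 to 17888801), so it precedes an internal start and not the outermost one. Capitals mark a match to any of the 8 motifs.
Mertk: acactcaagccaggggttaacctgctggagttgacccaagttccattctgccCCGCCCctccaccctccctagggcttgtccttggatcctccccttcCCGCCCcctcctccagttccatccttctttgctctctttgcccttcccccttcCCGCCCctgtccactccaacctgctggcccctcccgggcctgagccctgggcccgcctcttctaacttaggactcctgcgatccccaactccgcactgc
Axl: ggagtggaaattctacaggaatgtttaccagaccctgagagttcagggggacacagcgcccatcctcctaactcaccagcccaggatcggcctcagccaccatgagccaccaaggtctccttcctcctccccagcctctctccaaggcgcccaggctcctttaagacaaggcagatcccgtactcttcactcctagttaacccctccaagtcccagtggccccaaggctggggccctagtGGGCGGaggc
Cd36: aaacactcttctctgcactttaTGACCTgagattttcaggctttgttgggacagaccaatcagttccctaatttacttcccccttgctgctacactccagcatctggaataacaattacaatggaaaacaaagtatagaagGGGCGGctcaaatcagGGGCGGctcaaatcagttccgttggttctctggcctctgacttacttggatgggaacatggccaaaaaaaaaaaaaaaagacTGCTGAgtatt
Cd68: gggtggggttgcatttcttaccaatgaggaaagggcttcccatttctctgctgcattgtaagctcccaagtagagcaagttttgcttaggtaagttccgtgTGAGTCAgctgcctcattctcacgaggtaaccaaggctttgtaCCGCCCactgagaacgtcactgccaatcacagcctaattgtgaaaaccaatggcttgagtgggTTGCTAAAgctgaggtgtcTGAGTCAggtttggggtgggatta

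The SP/KLF motif (GGGCGG) matched in 5 of the 7 promoters, those of Mertk, Axl, Gas6, Cd36 and Cd68, against 33.0% of all 32536 promoter windows. In Mertk it is the only motif in capitals, at 3 places, and in Axl it is the single match. The AP-1 motif (TGANTCA) matched in Cd68, at 2 places, against 6.73% of all windows. Cd68 also held the C/EBP motif (TTGCNNAA, 9.57% of all windows). The window before the internal Cd36 start held the nuclear receptor half-site (AGGTCA, 14.04% of all windows) and the MAF half-site (TGCTGA, 16.1% of all windows), and the latter was also in Stab1. The PU.1 motif (AGGAAGT, 7.70% of all windows), the IRF motif (GAAANNGAA, 7.15%) and the TATA box (TATAAA, 12.3%) matched in 0 of the 7. The Marco window held 0 of the 8 motifs. No motif was thus found in all of the 5 searched promoters of genes that rose, and a match is a run of letters, not a site shown to be bound.

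The question was how the uptake receptors differed between libraries labelled OXCT1mKO and Control. Of the 10 genes, 6 rose and 0 fell in OXCT1mKO (limma adjusted p under 0.05), whereas of the 12523 genes tested 16.4% rose and 16.4% fell. The genes that rose were the TAM receptors Mertk and Axl, the stabilin Stab1, the class B scavenger receptor Cd36, the class A scavenger receptor Msr1 and the lysosomal glycoprotein Cd68. In all 10 genes both OXCT1mKO libraries lay above both controls, an order seen in 37.6% of tested genes. The median log2 fold change of the 10 was 0.83, against 0.00 for all genes tested. All 6 calls were lost when OXCT1mKO 1 or OXCT1mKO 2 was left out, fits in which the single remaining library is assumed to vary like the controls and in which 0 and 9 genes of the whole table rose.

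**Figure D1:**
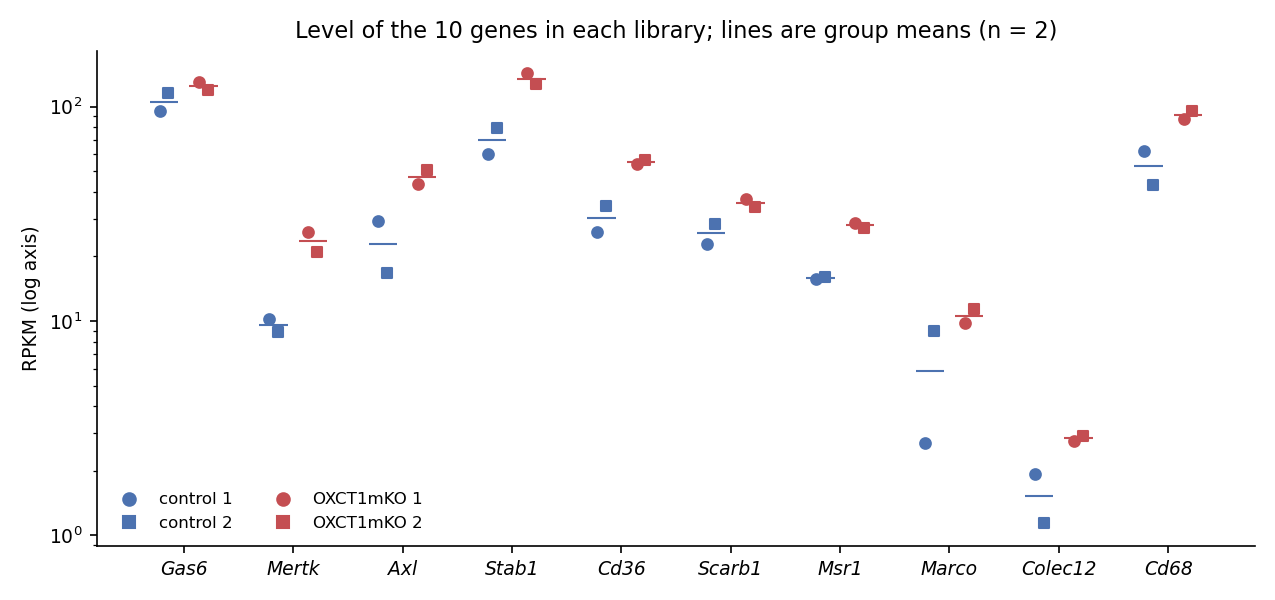
RPKM of the 10 genes (log axis) in each of the 4 libraries, circles for replicate 1 and squares for replicate 2, blue for control and red for OXCT1mKO, with lines at group means (n = 2). In each gene both red points lie above both blue points, with a wide gap in Mertk and a narrow one in Gas6 and Marco.

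Other facts of the libraries bear on every gene below. The deposited RPKM summed to between 325034 and 377575 per library, and globin genes made up 8.81% of the sum in control 1 against 0.132% to 0.327% in the others. Oxct1 was 19.3 and 20.3 RPKM in control libraries, against 14.7 and 15.4 RPKM under OXCT1mKO, so its transcript was still present under the OXCT1mKO label. The macrophage markers Csf1r, Tyrobp and Ctss were present in all 4 libraries, but so were epithelial, T cell and endothelial transcripts. Among the 14 pan-macrophage markers 7 were called higher and 1 lower. The lower one was Lyz2, the macrophage lysozyme, which was 688.1 and 743.9 RPKM in the control libraries and 8.76 and 6.52 RPKM in OXCT1mKO (log2 fold change -6.39 ± 0.15, limma adjusted p 0.00252). Its near-identical copy Lyz1, looked up after these values were seen, went from 14.7 and 13.5 to 150.3 and 116.0 RPKM, and the sum of the pair from 702.8 and 757.5 to 159.0 and 122.5 RPKM. Of 13 Kupffer cell markers 11 rose, and of 17 liver endothelial markers 13 rose. The summed level of all 14 macrophage markers went from 1941 and 1674 RPKM in the controls to 2048 and 2153 RPKM in OXCT1mKO, 1.16-fold, and without Lyz2 from 1253 and 930 to 2040 and 2146 RPKM, 1.92-fold. That of the endothelial markers went from 1829 and 2082 to 3575 and 3135 RPKM, and that of the Kupffer cell markers from 413 and 352 to 923 and 682 RPKM. Id3 (0.12 ± 0.13, not past the threshold) made up 68.2% and 67.1% of the Kupffer cell sum in the controls. Without Id3 that sum was 4.22-fold higher in OXCT1mKO, and the median log2 fold change of the list was 2.38. Their part in the members' rise was not tested, and in bulk RNA a larger share of cells of a type and more RNA per cell cannot be told apart.

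Among the ligand and its receptors, the receptors rose and the ligand did not pass the test. Mertk, the receptor kinase of resting tissue macrophages, lies on the plus strand of chromosome 2 (GENCODE M21, GRCm38), from 128698956 to 128802894. Control libraries had 10.2 and 8.88 RPKM of it, OXCT1mKO libraries 26.1 and 20.9 RPKM. Every OXCT1mKO value was thus above 20 RPKM and every control value near or below 10 RPKM, with means of 9.55 ± 0.936 and 23.5 ± 3.66 RPKM (SD, n = 2) that differed 2.47-fold. Its log2 fold change of 1.21 ± 0.14 (SE) was the largest of the 10 genes and ranked 323rd among all genes tested (limma adjusted p 0.0127).

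Axl, the receptor kinase that inflammatory signals induce in macrophages, lies on the minus strand of chromosome 7, from 25757273 to 25788705. It was 29.2 and 16.7 RPKM in control libraries, against 43.4 and 50.8 RPKM under OXCT1mKO. The groups did not overlap, although the controls lay further apart than those of Mertk, with means of 22.9 ± 8.81 and 47.1 ± 5.26 RPKM (SD, n = 2). Its log2 difference was 1.05 ± 0.27 (limma adjusted p 0.0416) and became 0.67 without control 2. Without the filter on low genes, which raises the number of genes tested to 19514, Axl no longer passed (limma adjusted p 0.0939).

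Gas6, the bridging ligand of both receptors, lies on the minus strand of chromosome 8, from 13465374 to 13494490. It had the highest control mean of the 10 genes, with 95.1 and 115.6 RPKM, and was 131.0 and 119.1 RPKM in OXCT1mKO. The higher control lay just under the lower OXCT1mKO library, and its log2 fold change, 0.25 ± 0.13, missed the threshold (limma adjusted p 0.191). It was 0.11 without control 1 (limma adjusted p 0.444) and 0.39 without control 2 (limma adjusted p 0.0546), so the size of the change depends on which control is kept. In GENCODE its exons share bases with Tmem255b on the opposite strand. That gene was at most 0.0717 RPKM, in control 2, and listed at 0 in the other 3 libraries.

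Ligand and receptor therefore changed their proportion. The third TAM receptor, Tyro3, was 0.705 and 0.995 RPKM in control libraries, against 0.972 and 0.809 RPKM under OXCT1mKO, below the minimum for testing. The sum of the 3 receptors was 40.1 and 26.6 RPKM in control libraries, against 70.5 and 72.6 RPKM under OXCT1mKO. Per unit of receptor transcript, Gas6 was 2.37 and 4.35 in the controls and 1.86 and 1.64 in OXCT1mKO, lower in both OXCT1mKO libraries than in either control. The ratio of Axl to Mertk was 2.86 and 1.88 in the controls and 1.66 and 2.43 in OXCT1mKO, which overlap. These ratios are descriptions and were not tested.

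Stab1, an endocytic receptor of macrophages and sinusoidal endothelium that binds phosphatidylserine, lies on the minus strand of chromosome 14, from 31139013 to 31168641. It was 59.8 and 79.2 RPKM in control libraries, against 143.1 and 126.8 RPKM under OXCT1mKO, and so was the most abundant of the 10 genes in the OXCT1mKO libraries by its mean. The means were 69.5 ± 13.7 and 135.0 ± 11.5 RPKM (SD, n = 2), a log2 difference of 0.96 ± 0.16 (limma adjusted p 0.018). Its exons share bases with those of Nt5dc2 on the opposite strand, which was between 11.4 and 14.6 RPKM and whose groups overlapped. Stab2, the stabilin of sinusoidal endothelium, was 48.1 and 57.9 RPKM in control libraries, against 114.7 and 97.6 RPKM under OXCT1mKO. The ratio of Stab1 to Stab2 was 1.24 and 1.37 in the controls and 1.25 and 1.30 in OXCT1mKO, so the 2 stabilins kept nearly the same proportion in all 4 libraries.

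The class B receptors Cd36 and Scarb1 differed in the size of their change. Cd36, which takes up oxidised lipoproteins and long-chain fatty acids, lies on the minus strand of chromosome 5, from 17781690 to 17888801. It was 26.1 and 34.4 RPKM in control libraries, against 54.2 and 56.3 RPKM under OXCT1mKO. The OXCT1mKO libraries lay close together and well above the controls, and the log2 fold change was 0.86 ± 0.15 (limma adjusted p 0.0185). Cd36 is also abundant in adipocytes, whose 5 markers summed to between 0.0347 and 0.0754 RPKM per library, Adipoq and Lep being listed at 0 in all 4.

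Scarb1, the receptor for high-density lipoprotein, lies on the same strand of chromosome 5, from 125277087 to 125341094. It was 22.9 and 28.3 RPKM in control libraries, against 37.0 and 34.0 RPKM under OXCT1mKO, a separation that narrowly missed the threshold (log2 fold change 0.46 ± 0.13, limma adjusted p 0.0511). It did not pass without the filter (limma adjusted p 0.0921), without the trend (0.0635) or without control 1, where the log2 fold change was 0.32 (0.0824). It passed under other settings, with a limma adjusted p of 0.0403 with median ratio scaling, 0.0261 with equal RPKM sums without globin, 0.0430 with a minimum mean of 5 RPKM and 0.0230 without control 2. The ratio of Cd36 to Scarb1 was 1.14 and 1.21 in the controls and 1.46 and 1.66 in OXCT1mKO, without overlap and not tested.

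Class A scavenger receptors have a collagen-like stalk, and 3 of them are among the genes. Msr1, the type found on most macrophages, lies on the minus strand of chromosome 8, from 39581685 to 39642673. It was 15.7 and 16.1 RPKM in control libraries, against 28.8 and 27.2 RPKM under OXCT1mKO, the tightest replicates of the 10 genes in the controls. The means of 15.9 ± 0.282 and 28.0 ± 1.14 RPKM (SD, n = 2) gave a log2 difference of 0.78 ± 0.09, whose SE was the smallest of the 10 (limma adjusted p 0.0127).

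Marco, a receptor of Kupffer cells and of other resident macrophages that face bacteria, lies on the minus strand of chromosome 1, from 120474538 to 120505024. It was 2.70 and 8.94 RPKM in control libraries, against 9.78 and 11.4 RPKM under OXCT1mKO. Control 2 lay near the OXCT1mKO libraries and control 1 far below them, and its log2 fold change, 0.93 ± 0.47, missed the threshold (limma adjusted p 0.183). It became 0.22 without control 1 and 1.64 without control 2 (limma adjusted p 0.0171), so 1 control library decides whether Marco is called.

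Colec12, a scavenger receptor with a lectin domain known from vascular endothelium, lies on the plus strand of chromosome 18, from 9707595 to 9882644. It was the lowest of the 10 genes, with 1.93 and 1.14 RPKM in control libraries, against 2.76 and 2.92 RPKM under OXCT1mKO. The groups did not overlap, and its log2 fold change, 0.62 ± 0.19, missed the threshold (limma adjusted p 0.0625), except without control 1 (0.84, limma adjusted p 0.0304), and it was 0.39 without control 2 (limma adjusted p 0.0902). The ratio of Marco to Msr1 was 0.172 and 0.554 in the controls and 0.340 and 0.419 in OXCT1mKO, so these class A receptors did not keep a fixed proportion between the controls.

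Cd68, a lysosomal glycoprotein used as a marker of phagocytes, lies on the minus strand of chromosome 11, from 69664213 to 69666153. It was 62.3 and 43.2 RPKM in control libraries, against 87.8 and 95.1 RPKM under OXCT1mKO. All OXCT1mKO values were above all control values, with means of 52.7 ± 13.5 and 91.5 ± 5.15 RPKM (SD, n = 2). The difference was 0.81 ± 0.19 on the log2 scale (limma adjusted p 0.0342), which did not pass without the filter on low genes (limma adjusted p 0.0768).

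**Figure D2:**
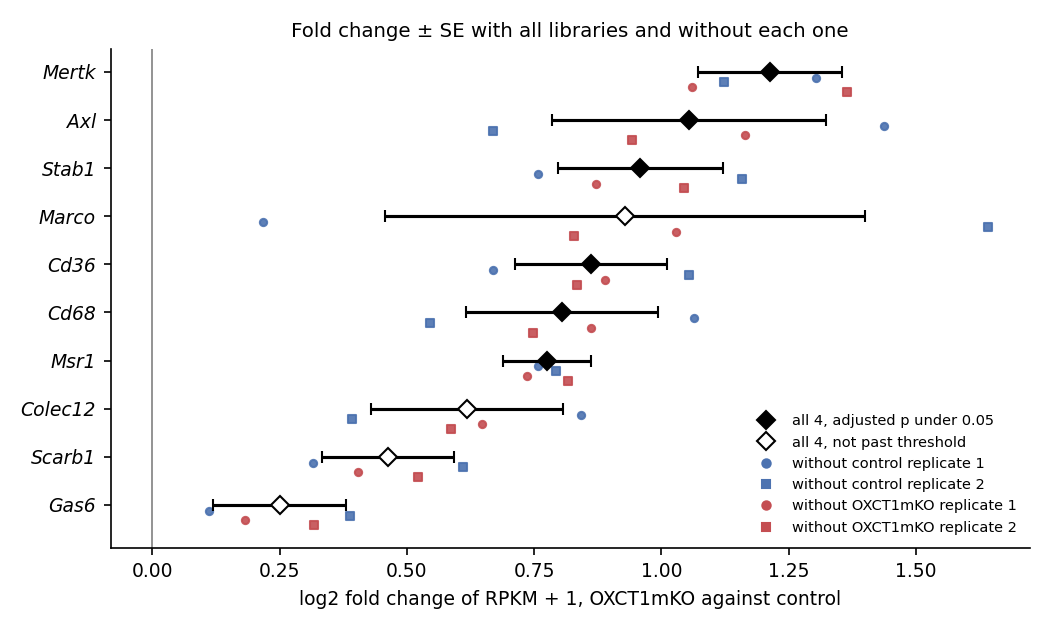
Log2 fold change of RPKM + 1 for the 10 genes, OXCT1mKO against control, as diamonds with the SE, filled where the limma adjusted p was under 0.05, and the value without each library as small blue (control left out) or red (OXCT1mKO left out) points. All points lie above 0, Msr1 moves least, and Marco runs from 0.22 to 1.64 with the control that is left out.

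By mean level the controls ran in the order Gas6, Stab1, Cd68, Cd36, Scarb1, Axl, Msr1, Mertk, Marco and Colec12. The library values overlapped between Stab1 and Cd68, Cd36 and Scarb1, Scarb1 and Axl, and Mertk and Marco, so these neighbours did not differ beyond their spread. In OXCT1mKO the order was Stab1, Gas6, Cd68, Cd36, Axl, Scarb1, Msr1, Mertk, Marco and Colec12, and only Stab1 and Gas6 overlapped. Stab1 and Gas6 had thus exchanged places by mean, as had Axl and Scarb1.

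Libraries of the same group also differed from each other. Of the 10 genes, 4 were higher in control 1 than in control 2, with ratios of 1.75 for Axl, 1.69 for Colec12, 1.44 for Cd68 and 1.15 for Mertk. The other 6 were higher in control 2, with ratios of 0.302 for Marco and from 0.755 for Stab1 to 0.975 for Msr1. The summed pan-macrophage markers without Lyz2 had a ratio of 1.35 between the same libraries and the endothelial markers 0.878, with 15 of 17 endothelial markers higher in control 2. Neutrophil markers, at 0.129, were also far higher in control 2. The share of all tested genes higher in control 2 was not computed, so these counts have no background. Globin genes took 8.81% of the RPKM sum in control 1 and 0.327% in control 2, which also bears on them. Whether these differences in cell markers set those of the members was not tested.

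Set against marker sums, the order of the groups depended on which macrophage or Kupffer cell markers were summed. For the endothelial list only the removal of single markers was tried. Per 1000 RPKM of liver endothelial markers, Mertk was 5.58 and 4.27 RPKM in control libraries, against 7.31 and 6.68 RPKM under OXCT1mKO. Stab1 lay above the controls too, by little, with 32.7 and 38.0 RPKM against 40.0 and 40.5 RPKM. Gas6 and Scarb1 lay below and the other 6 genes overlapped. Leaving out any 1 of the 17 endothelial markers changed the order of the groups in 0 of the 10 genes.

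Per 1000 RPKM of the 13 pan-macrophage markers without Lyz2, Mertk was 8.15 and 9.56 RPKM in control libraries, against 12.8 and 9.76 RPKM under OXCT1mKO. It was the one gene of the 10 above the controls on this scale, and it overlapped when Cd14, Tyrobp or Laptm5 was left out of the sum. Gas6, Scarb1 and Cd68 lay below, and the other 6 genes overlapped. With Lyz2 in the sum, 7 of the 10 genes, Cd68 among them, lay above the controls and the other 3, Gas6, Scarb1 and Marco, overlapped. Mertk was then 5.26 and 5.31 RPKM in control libraries, against 12.8 and 9.73 RPKM under OXCT1mKO. The sum with Lyz2 differed only 1.16-fold between the groups, so ratios to it largely repeat the order in RPKM.

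Per 1000 RPKM of all 13 Kupffer cell markers, Mertk lay above the controls, with 24.7 and 25.2 RPKM against 28.3 and 30.7 RPKM, and Gas6 and Scarb1 lay below. Without Id3 the order for Mertk turned, to 77.8 and 76.7 RPKM in control libraries, against 41.3 and 51.1 RPKM under OXCT1mKO. On this scale 9 of the 10 genes lay below the controls, with Marco overlapping. The sum without Id3 rose 4.22-fold and Mertk, the member that rose most, 2.47-fold, so lower ratios follow from the sum itself. No direction relative to macrophage, Kupffer cell or liver endothelial markers is therefore drawn for Mertk. These ratios were not tested, and the sums with Lyz2, without Id3 and without single markers were chosen after seeing the data. The share of all tested genes above or below the controls was not computed for any marker sum. The counts on these scales are therefore not read as results about the 10 genes.

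**Figure D3:**
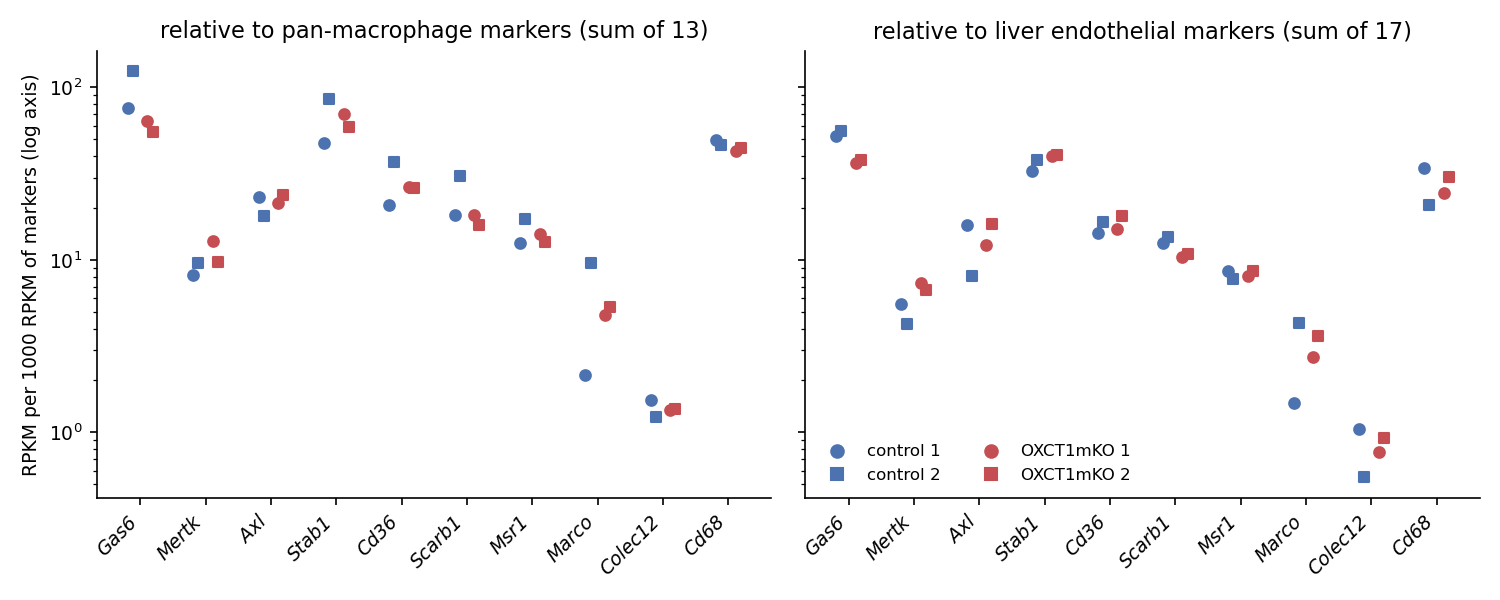
RPKM of each of the 10 genes per 1000 RPKM of summed pan-macrophage markers (left, 13 markers without Lyz2) and of liver endothelial markers (right, 17 markers), in each library, on log axes. With these sums, red OXCT1mKO points lie above the blue control points for Mertk in both panels and for Stab1 on the right, below them for Gas6 and Scarb1 in both and for Cd68 on the left, and overlap elsewhere, while with Lyz2 in the sum on the left Cd68 lies above and Gas6 and Scarb1 overlap.

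Other genes of the pathway were read from 9 lists from which the 10 members were left out. Their counts stand beside the 16.4% of all tested genes that rose. Among 12 tested bridging molecules and opsonins, 2 rose (16.7%, a share near that of all genes) and 0 fell, with a median log2 fold change of 0.43. The genes that rose were Pros1, the protein S that bridges to the TAM receptors, from 27.8 ± 2.42 to 42.4 ± 1.40 RPKM (SD, n = 2; limma adjusted p 0.0178), and Ptx3, a secreted pentraxin, from 0.255 and 0.250 to 1.29 and 2.46 RPKM (limma adjusted p 0.0257). The call for Ptx3 was lost without the filter (limma adjusted p 0.0544), without control 1 (0.0627) and without control 2 (0.0560). Pros1 therefore passed the test, whereas Gas6, the other TAM ligand named here, did not. The ratio of Gas6 to Pros1 was 3.65 and 3.92 in the controls and 3.02 and 2.88 in OXCT1mKO. The C1q chains, chosen after their values were seen, differed more between the controls than between groups, C1qa being 474.9 and 227.4 RPKM in control libraries, against 388.6 and 438.9 RPKM under OXCT1mKO.

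Of 11 tested genes outside the members listed as receptors for phosphatidylserine or other signs of dying cells, 6 rose and 0 fell, with a median of 0.65. They included Timd4 (1.97 ± 0.21), a tethering receptor of Kupffer cells, Havcr2 (1.52 ± 0.12), also called TIM-3, Cd300lb (1.28 ± 0.14), an activating receptor, and Lrp1 (0.84 ± 0.10), an engulfment receptor for calreticulin-coated cells. Of 18 other scavenger receptors, 10 rose and 0 fell, with a median of 1.21. Those with the smallest p were Clec7a (1.72 ± 0.13), the receptor for fungal glucans, Cd5l (3.01 ± 0.25), a secreted protein with scavenger receptor domains, Cd163 (2.67 ± 0.24), which takes up haptoglobin-bound haemoglobin, and Mrc1 (1.15 ± 0.11), the mannose receptor. Cd163 was 0.512 and 0.215 RPKM in control libraries, against 9.56 and 6.02 RPKM under OXCT1mKO, a larger change than that of any of the 10 members. Several genes of these 2 lists are Kupffer cell markers as well, and others, Stab2 among them, are liver endothelial markers. The counts are therefore not separate from those of these cell types.

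Downstream of the receptors, 10 of 21 tested genes of the engulfment machinery rose and 0 fell, with a median of 0.54. Plcg2 (1.41 ± 0.09), a phospholipase of immune receptor signalling, was 6.67 and 6.12 RPKM in control libraries, against 19.0 and 18.4 RPKM under OXCT1mKO. Lyn (1.10 ± 0.09), a Src family kinase, Dock2 (0.89 ± 0.10), an activator of Rac in leukocytes, and Vav3 (0.91 ± 0.13), another exchange factor, rose as well. Of 26 genes of phagosome maturation and digestion, 5 rose (19.2%, near the share of all genes) and 1 fell, with a median of 0.21. Lipa (0.99 ± 0.09), the lysosomal acid lipase, Npc1 (1.06 ± 0.12), which exports cholesterol from lysosomes, and Uvrag (0.77 ± 0.11), of the autophagy lipid kinase complex, rose, while Rab17, a GTPase of epithelial cells, fell by 0.99 ± 0.11.

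For the fate of the ingested lipid, 4 of 14 genes rose and 2 fell, with a median of 0.09. The transporters Abca7 (0.62 ± 0.10) and Abcg1 (0.51 ± 0.10) and the cholesterol ester hydrolase Nceh1 (0.80 ± 0.13) rose. Fabp4, a fatty acid carrier of macrophages and capillary endothelium, fell by 0.62 ± 0.13, from 218.0 and 261.5 RPKM to 148.7 and 161.0 RPKM. Cd36, which brings in fatty acids, and Fabp4, which carries them, therefore moved in opposite directions between the same libraries. The other gene that fell was Angptl4 (-0.59 ± 0.15), an inhibitor of lipoprotein lipase, named after its values were seen.

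Among 8 tested genes of TAM receptor shedding and signalling brakes, 6 rose and 0 fell, with a median of 0.70. Adam17, a protease that cleaves MERTK from the cell surface, went from 9.91 and 9.94 RPKM to 16.7 and 17.7 RPKM. Ifnar2 (0.73 ± 0.10), a chain of the type I interferon receptor, and Socs3 (0.73 ± 0.11), a brake on cytokine signalling, rose too. Of 15 genes that mark living cells or draw phagocytes to dying ones, 5 rose and 1 fell, with a median of 0.66. The inhibitory receptor Sirpa (0.88 ± 0.18) and its ligand Cd47 (0.54 ± 0.12) both rose, as did the inhibitory receptor Pirb (1.39 ± 0.14) and the lipid receptor Gpr132 (1.33 ± 0.12), while the chemokine Cx3cl1, released by dying cells, fell by 0.63 ± 0.14.

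Of 16 tested nuclear receptors and transcription factors that act on uptake genes or mark macrophages, 6 rose and 1 fell, with a median of 0.54. Nr4a1 (1.20 ± 0.13), an orphan nuclear receptor, Rxra (0.90 ± 0.14), the partner of LXR and PPAR receptors, Spi1 (1.12 ± 0.22), which encodes PU.1, and Spic (2.12 ± 0.27), a factor of iron-recycling macrophages, rose, and the clock gene Nr1d1 fell by 1.16 ± 0.24. Nr1h3, the LXR gene of macrophages, singled out after its values were seen, was 10.1 and 3.72 RPKM in control libraries, against 15.03 and 11.4 RPKM under OXCT1mKO and did not pass (limma adjusted p 0.139).

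**Figure D4:**
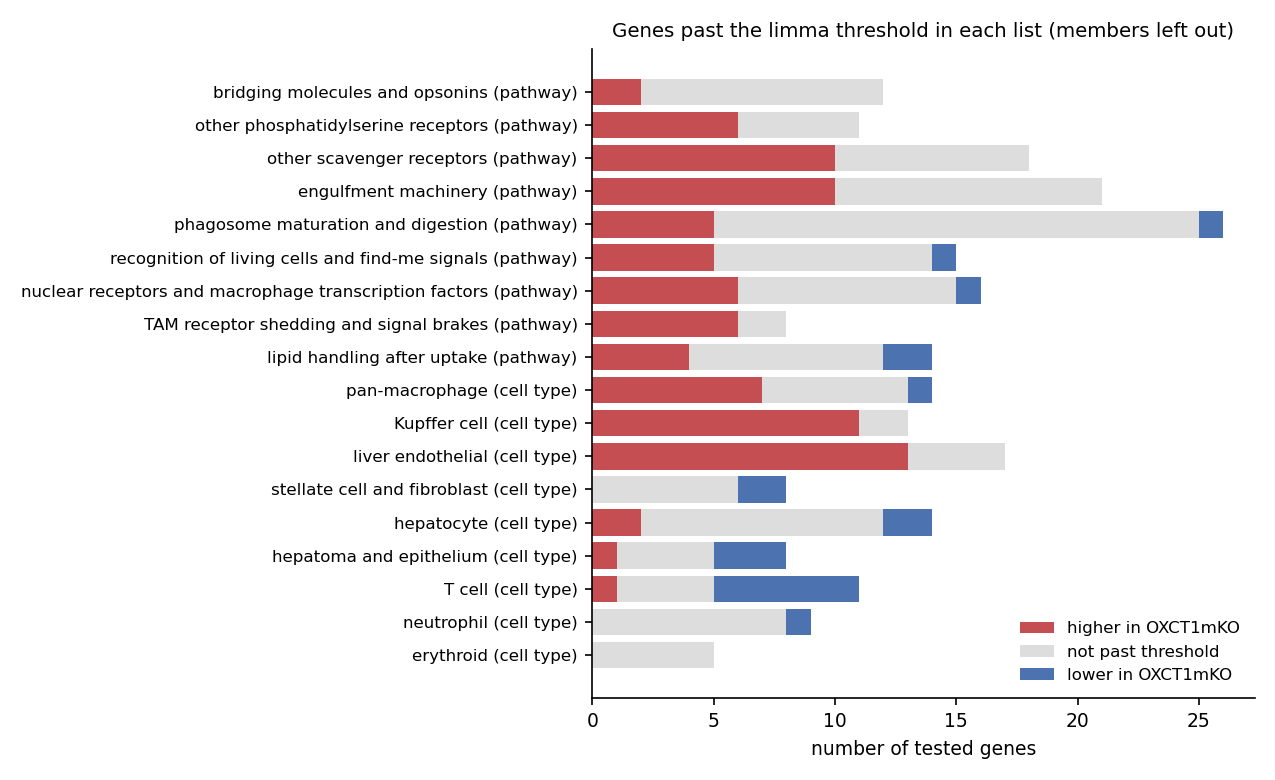
Number of tested genes in each pathway and cell type list that were higher (red), lower (blue) or not past the limma threshold (grey) in OXCT1mKO, with the 10 members left out. TAM receptor shedding and signal brakes (6 of 8), other scavenger receptors (10 of 18) and other phosphatidylserine receptors (6 of 11, not all binding that lipid) have mostly red bars. So do the endothelial (13 of 17) and Kupffer cell (11 of 13) markers, whereas T cell markers (6 of 11) are mostly blue.

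Markers of other cells that the sort could hold are given beside the 16.4% of all tested genes that rose and the 16.4% that fell. Of 8 tested stellate cell and fibroblast markers 0 rose and 2 fell, and of 14 hepatocyte markers 2 rose (14.3%) and 2 fell, with a median log2 fold change of 0.82 that is close to the 0.83 of the 10 members. Of 8 hepatoma and epithelial markers 1 rose (12.5%) and 3 fell, with a median of -0.55. Of 11 T cell markers 1 rose and 6 fell, with a median of -1.36, and of 9 neutrophil markers 0 rose and 1 fell. Krt18, an epithelial keratin, was still 267.9 and 233.8 RPKM in the OXCT1mKO libraries, well above any of the 10 members there. Of the 5 tested erythroid markers limma called 0 (0 with p under 0.05 before adjustment), and their median log2 fold change was -3.80. That value rests on control 1, where the list summed to 24384 RPKM against 846, 330 and 309 RPKM in control 2, OXCT1mKO 1 and OXCT1mKO 2. For the haemoglobin gene Hba-a1 it was -1.41 without control 1 (limma adjusted p 0.0225) and -6.29 without control 2 (limma adjusted p 0.00239).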

How the data were processed

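Polyadenylated RNA of 2 control and 2 OXCT1mKO samples was measured, and groups and replicate numbers came from the sample titles. The labels' extraction protocol names an Agilent oligonucleotide microarray, whereas the series is typed as sequencing and the values are RPKM. They were used as sequencing values. The authors deposited RPKM values, 1 row per gene symbol. Per the submitters' processing notes, STAR 2.10, R 4.0.5 and build mm10 were used, with no role stated. The counter, strand setting, annotation and gene lengths were not given in the sources used here. Without strand, reads of genes that overlap on opposite strands cannot be told apart. No count model was used, since RPKM is not a count, and read depth is unknown. Ratios of low values gave only a weak peak, of 12 genes or fewer per library, at relative depths between 0.911 and 1.03.

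Values were transformed to log2(RPKM + 1), a scale that understates the change of low genes, and 12523 genes with a mean of at least 1 RPKM were fitted in limma 3.58.1 (R 4.3.3) with a variance trend. Tests were two-sided, with Benjamini-Hochberg adjustment over all genes tested and a threshold of 0.05. With 2 libraries per group, the smallest two-sided p of an exact permutation test is 0.333. In 10 runs on simulated data for these genes, 43.3% of genes changed by 1 and 0.597% of those changed by 0.5 on the log2 scale were called. Only 200 genes were changed per run, whereas 2058 were called higher and 2052 lower in the data. With fewer changed genes the adjustment is stricter, so these shares do not give the power of the fit used here. Members and lists (9 of pathways, 10 of cell types) were chosen with earlier results of these data known. All members, Oxct1, up to 4 genes with the smallest p per pathway list and up to 3 of the highest mean per cell type list could be named, with the single gene that moved against its list; others are marked in the text, and Csf1r, Stab2, Tyro3, Adipoq and Lep, named for their role, were also outside this rule. A gene that the rule would name is not reported here. Gene positions came from GENCODE M21 (GRCm38, also called mm10) and promoters from RefSeq (GRCm38.p6).

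Alternatives were a pseudocount of 0.1, no filter, a minimum mean of 5 RPKM, no trend, 2 scalings, a replicate block and leaving out each library. Marker sums with Lyz2, without Id3 and without single markers were added after seeing the data.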

Additional observations from a re-analysis of the deposited data

How the results depend on the processing

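The members' fold changes kept their upward direction under all 11 alternatives (10 for Colec12, whose mean is below the stricter filter of 5 RPKM). The count of 6 members that rose became 0 without OXCT1mKO 1 and 0 without OXCT1mKO 2, 4 without the filter and 8 without control 2, and was 6 or 7 under the rest. Over all genes, 2058 rose and 2052 fell; without the filter 1191 and 1149 did, and leaving out 1 library gave from 0 to 2362 that rose and from 1 to 2056 that fell, the counts without OXCT1mKO 1 being 0 and 1 and without OXCT1mKO 2 being 9 and 1. The cause of these losses was not tested. At an unadjusted limma p under 0.05, 3466 genes passed without OXCT1mKO 1 and 3869 without OXCT1mKO 2. Equal RPKM sums without globin moved the median fold change to 0.09, with 2718 higher and 1479 lower.

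Among other named genes, leaving out 1 library reversed 3: Id3 ran from -0.0045 without control 2 to 0.25 without control 1, S100a9 from -1.35 without control 1 to 1.92 without control 2, and S100a8 from -1.60 to 2.15 without the same controls, and it was -0.04 without OXCT1mKO 1. The replicate numbers are not stated to pair samples, and the correlation over genes of the replicate difference between groups was 0.0545. With Lyz2 in the macrophage sum, an alternative chosen after seeing the data, the log2 ratio of OXCT1mKO to control per marker sum turned positive for 8 members: Gas6 0.014, Marco 0.58, Msr1 0.59, Cd36 0.63, Stab1 0.72, Scarb1 0.24, Cd68 0.59 and Colec12 0.69. Without Id3 in the Kupffer cell sum, which then rose 4.22-fold, it turned negative for Mertk (-0.74) and Axl (-0.93), which rose less. With the replicate block, 1871 genes rose and 1735 fell, and the block changed the call of 0 of the 10 members.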
